A study of Mus musculus with 15 samples.

Results

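The BCL2 family genes examined here were 10 mouse genes taken by name: the anti-apoptotic Bcl2, Bcl2l1, Bcl2l2 and Mcl1, the effector Bak1, and the BH3-only genes Bid, Bad, Bcl2l11, Bmf and Bik. All 10 were found by Ensembl identifier among the 48440 genes of the count table, and all 10 were among the 18167 genes that passed the filter on low counts. RNA sequencing had been done on primary lung fibroblasts of C57BL/6 mice, with 3 cell strains from Atm+/+ and 3 from Atm-/- animals, each genotype sampled at passage 2 and at passage 8. The remaining group held 3 Atm+/+ cultures, also labelled passage 2, that had been given 10 Gy of X-rays and were collected 10 days afterwards. Each of the 5 groups thus had 3 libraries, 15 in all, and every culture shared the C57BL/6 background, serum-containing medium and 3% oxygen. Atm encodes a kinase activated by breaks in both DNA strands, and the irradiated cells served in the study as a reference for stress-induced premature senescence. Unirradiated cultures held for the same 10 days, and irradiated Atm-/- cultures, were not analysed here, so the radiation itself and the days in culture that followed it cannot be told apart.

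Proteins of the BCL2 family decide whether the outer mitochondrial membrane is breached during apoptosis. BAX and BAK, the effectors, form the pores that let cytochrome c out. BCL2, BCL-XL (from Bcl2l1), BCL-W (from Bcl2l2) and MCL1 hold the effectors in check, and BH3-only proteins such as BIM (from Bcl2l11), BID, BAD, BMF and BIK release that check or engage the effectors directly. Senescent fibroblasts are known for resisting apoptosis, and BCL-XL, BCL-W and BCL2 are the targets of drugs that kill senescent cells.

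In GRCm38 (GENCODE release M21) the anti-apoptotic genes lie at chr1:106538178-106714274 on the minus strand (Bcl2), chr2:152780668-152831728 on the minus strand (Bcl2l1), chr14:54883377-54888234 on the plus strand (Bcl2l2) and chr3:95658788-95663176 on the plus strand (Mcl1). Bak1 lies at chr17:27019810-27029009 on the minus strand. The BH3-only genes lie at chr6:120891930-120916853 on the minus strand (Bid), chr19:6941861-6951899 on the plus strand (Bad), chr2:128126038-128162547 on the plus strand (Bcl2l11), chr2:118528757-118549687 on the minus strand (Bmf) and chr15:83526862-83544634 on the plus strand (Bik). Bcl2l1, Bcl2l11 and Bmf therefore share chromosome 2. Exons of other genes overlap 20.5% of the exon bases of Bad (Gpr137, opposite strand), 18.2% of Bak1 (Ggnbp1, opposite strand), 17.7% of Bid (Bcl2l13, opposite strand), 13.3% of Bcl2l2 (Gm20521, same strand) and 6.09% of Bcl2 (D630008O14Rik, opposite strand). Another entry named Ggnbp1 overlaps 7.35% of Bak1, also on the opposite strand. The sources used here do not give the strand setting of the counting, and reads in those stretches cannot be assigned to either gene with certainty.

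Promoter sequence just before the most upstream RefSeq start (GRCm38.p6) is shown for 3 genes: Bcl2l1, which rose with passage in both genotypes, Bad, which fell with passage in Atm+/+ cells, and Bcl2l11, the BH3-only gene with a forkhead (FOXO) match. None of the 3 stretches overlaps an exon of another gene. Sequences run 5′ to 3′ along the strand of the gene, and capitals mark matches on either strand to the GC box bound by SP1 (GGGCGG), the CCAAT box (CCAAT) and the FOXO motif (GTAAACA).
Bcl2l1, chr2:152831729-152831878, minus strand: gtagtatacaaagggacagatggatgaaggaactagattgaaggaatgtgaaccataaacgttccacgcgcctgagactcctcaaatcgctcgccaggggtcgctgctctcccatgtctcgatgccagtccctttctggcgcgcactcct
Bad, chr19:6941711-6941860, plus strand: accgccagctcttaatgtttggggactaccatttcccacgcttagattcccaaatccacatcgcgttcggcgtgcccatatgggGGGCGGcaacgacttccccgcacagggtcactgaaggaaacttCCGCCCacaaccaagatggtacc
Bcl2l11, chr2:128125788-128126037, plus strand: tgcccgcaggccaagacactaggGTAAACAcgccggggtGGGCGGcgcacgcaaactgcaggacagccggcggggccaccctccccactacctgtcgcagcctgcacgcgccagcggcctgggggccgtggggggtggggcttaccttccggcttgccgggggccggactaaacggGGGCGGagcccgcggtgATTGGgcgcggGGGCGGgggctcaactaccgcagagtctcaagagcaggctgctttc

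The Bcl2l1 stretch held none of these 3 motifs. Bad had GC boxes beginning 66 and 23 bases before its start in the 150 bases shown, and another at 209 bases, outside them. Bcl2l11 had GC boxes beginning 211, 74 and 46 bases, a CCAAT box 57 bases and the FOXO motif 227 bases before its start. Among 32851 promoter windows of 250 bases, 32.7% held a GC box, 33.8% a CCAAT box and 3.17% the FOXO motif, so only the last is uncommon. Of the 9 members with a promoter entry, none besides Bcl2l11 held the FOXO motif in the 250 bases before any listed start. These matches are descriptions of letters, and binding was not measured.

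Depth was 30336228 to 39210772 counts in 13 of the 15 libraries. Atm+/+ passage 2 replicate 3 had 23605046 and Atm-/- passage 8 replicate 3 had 13645592 counts. Both stood apart beyond their depth: at equal depth they held an expected 17226 and 15037 genes against 20101 to 21978 in the others, so results for the 10 genes are also given without this pair where that changes them. Atm itself was counted at 0.873 to 3.10 CPM (TMM-normalised counts scaled to library size) with overlapping genotypes (log2 differences of -0.17, SE 0.52, and -0.24, SE 0.53, at passages 2 and 8), so its gene-level count does not check the genotype labels. The cells carried all 10 fibroblast markers in every library, with summed levels of 11918 to 17342 CPM in Atm-/- passage 8 and 26919 to 43520 CPM elsewhere. The 10 macrophage markers summed to 1994 to 3430 CPM in Atm+/+ passage 2, 896 to 1454 in Atm-/- passage 2 and 1235 to 2227 after irradiation, against 35.2 to 97.8 in the passage 8 groups. The 8 endothelial markers summed to 286 to 745 CPM at passage 2, 74.2 to 227 after irradiation and 2.88 to 30.4 at passage 8. Epithelial markers stayed under 19.1 CPM, mesothelial markers under 96.0 CPM and lymphocyte markers at or under 2.85 CPM, while smooth muscle and pericyte markers ranged from 4930 to 21871 CPM with the highest sums after irradiation. In bulk RNA, fewer cells of a type and less RNA per cell cannot be told apart.

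Serial passage was the first comparison. From passage 2 to passage 8 in Atm+/+ cells, 5 of the 10 genes were called by edgeR's quasi-likelihood test at an adjusted p under 0.05: Bcl2l1 and Bcl2l2 rose and Bak1, Bad and Bik fell. Of all genes tested, 23.3% were called in that comparison, 9.80% higher and 13.5% lower. The median log2 change of the 10 genes was -0.48 against 0.00 over all genes. The same passage step in Atm-/- cells called 3 of 10, with Bcl2l1 and Bid higher and Bik lower, against 13.0% of all genes (4.76% higher, 8.25% lower). There the median over the 10 genes was -0.22, against -0.08 over all genes. Without the 2 libraries that stood apart, a fit added after the data were seen, the passage step called 7 of 10 in Atm+/+ cells, adding Bcl2l11 and Bmf to the lower genes. It called 6 of 10 in Atm-/- cells, adding Bak1, Bcl2l11 and Bmf to the lower genes. The shares of all genes above belong to the fit with all libraries. Fits that left out libraries, this fit included, called 2186 to 7500 of all genes in Atm+/+ cells (4227 with all libraries). In Atm-/- cells they called 1476 to 5026 (2362 with all libraries).

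After 10 Gy, 4 of 10 genes differed from unirradiated passage 2 cells, with Bcl2l2 higher and Bak1, Bad and Bik lower, against 27.5% of all genes (11.0% higher, 16.5% lower). The median over the 10 genes was -0.37, against -0.01 over all genes. The count was 6 of 10 without the 2 libraries, adding Bcl2l1 to the higher and Bmf to the lower genes. Over all genes, fits that left out libraries called 2677 to 8561 there (4998 with all libraries). Against passage 8 Atm+/+ cells none of the 10 was called by edgeR, in a comparison that called 6.89% of all genes. There 1 had an unadjusted p under 0.05 (Bik), as did 3188 of the 18167 genes tested. DESeq2 called 1 of the 10 (Bik) and 2005 of all genes. Of the 10, 2 were called there without the 2 libraries (Bcl2l11 and Bik, both higher after irradiation). Over all genes, fits that left out libraries called 722 to 4710 in that comparison (1252 with all libraries). The irradiated and the passage 8 Atm+/+ cells were each compared with the same passage 2 libraries, so those comparisons are not independent.

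Between genotypes the count of called genes depended on the tool. At passage 2 none of the 10 genes was called by edgeR, where 0.969% of all genes were called. There 2 had an unadjusted p under 0.05 (Bid and Bad), as did 2929 of the 18167 genes tested. DESeq2 called 1 of the 10 (Bid) and 919 of all genes. At passage 8 edgeR called Bid alone, higher in Atm-/- cells, where 9.32% of all genes were called (5.03% higher, 4.29% lower). The medians over the 10 genes were -0.17 at passage 2 and -0.14 at passage 8, against 0.04 and -0.08 over all genes. At passage 8 DESeq2 called 5 of 10 (Bcl2l1, Mcl1, Bid and Bad higher and Bmf lower), and the fit without the 2 libraries called 4 of 10 (the same genes other than Bad). Over all genes DESeq2 called 3592 and the fit without the 2 libraries 4629, against 1693 by edgeR with all libraries. Between the 2 genotypes, the difference of passage effects called none of the 10 by edgeR, against 4.43% of all genes. Of the 10, 4 had an unadjusted p under 0.05, as did 5382 of the 18167 genes tested. DESeq2 called 2 there (Mcl1 and Bad), and so did the fit without the 2 libraries. Over all genes DESeq2 called 3532 in that test and fits that left out libraries 79 to 4600 (804 by edgeR with all libraries).

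**Figure D1:**
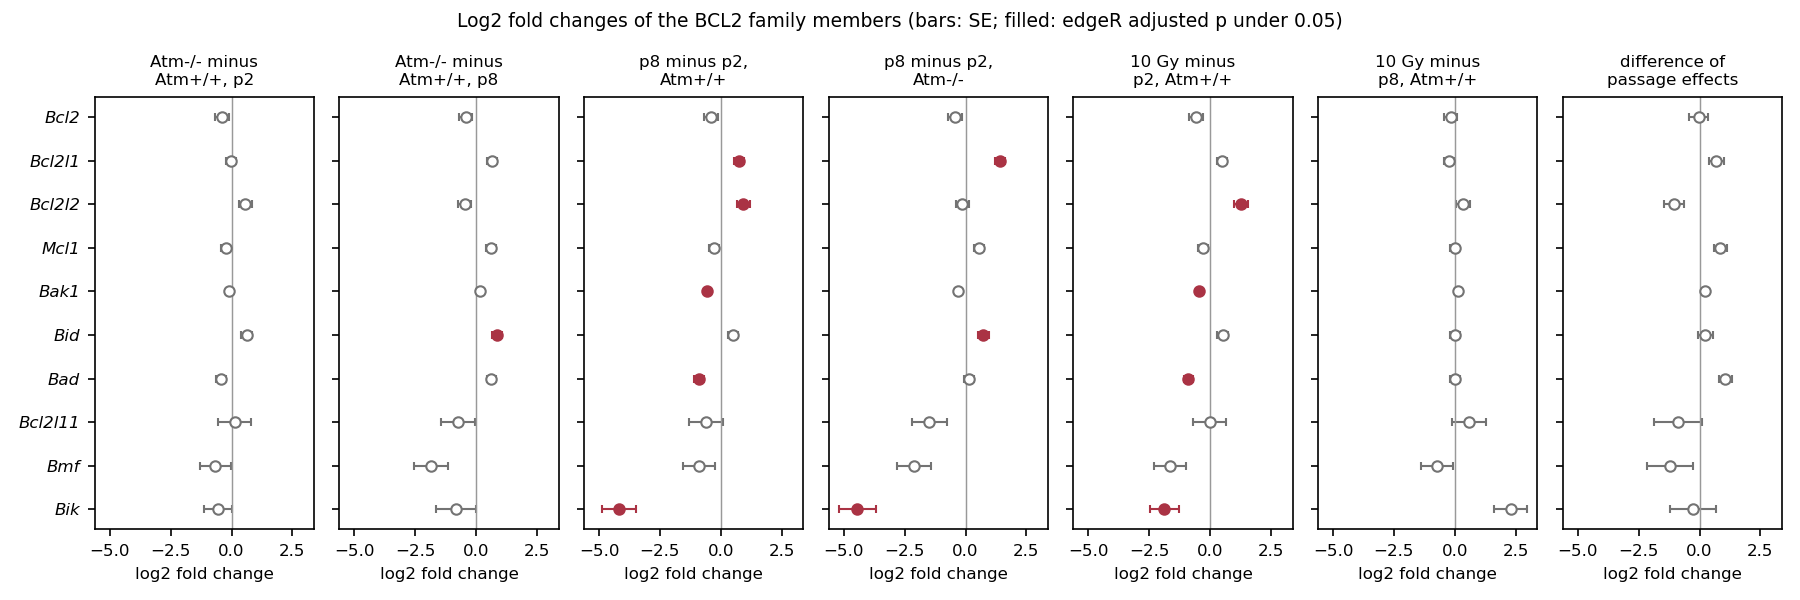
Log2 fold changes (horizontal axis) of the 10 BCL2 family genes (rows) in the 7 comparisons (panels), with bars for the standard error and filled points for an edgeR adjusted p under 0.05. Bik has the largest changes, -4.18 and -4.45 with passage, and no point is filled in the first, sixth and seventh panels.

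Levels between genes were compared as deposited TPM, which are scaled by gene length. In Atm+/+ passage 2 cells Bad (96.3 ± 7.03 TPM, SD, n = 3) and Mcl1 (82.7 ± 12.5) were the most abundant, and their libraries overlapped. Bcl2l1 (44.2 ± 4.91) and Bak1 (41.0 ± 9.48) came next and also overlapped each other. Bcl2l2 followed at 13.5 ± 8.78 TPM, and the other 5 genes had means between 1.96 and 5.05 TPM with neighbours overlapping throughout. Bcl2, the founding member of the family, was the lowest of the 10 at passage 2 in both genotypes. At passage 8 the order at the top had changed, with Bcl2l1 highest in Atm+/+ (88.6 ± 6.59 TPM) and in Atm-/- cells (111 ± 13.9), each overlapping Mcl1 in second place (78.5 ± 7.79 and 91.7 ± 11.3). Irradiated cells had Mcl1 (89.8 ± 4.62) and Bcl2l1 (86.0 ± 5.74) at the top with overlapping libraries and Bcl2l2 (40.4 ± 3.51) level with Bak1 (39.9 ± 2.20).

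**Figure D2:**
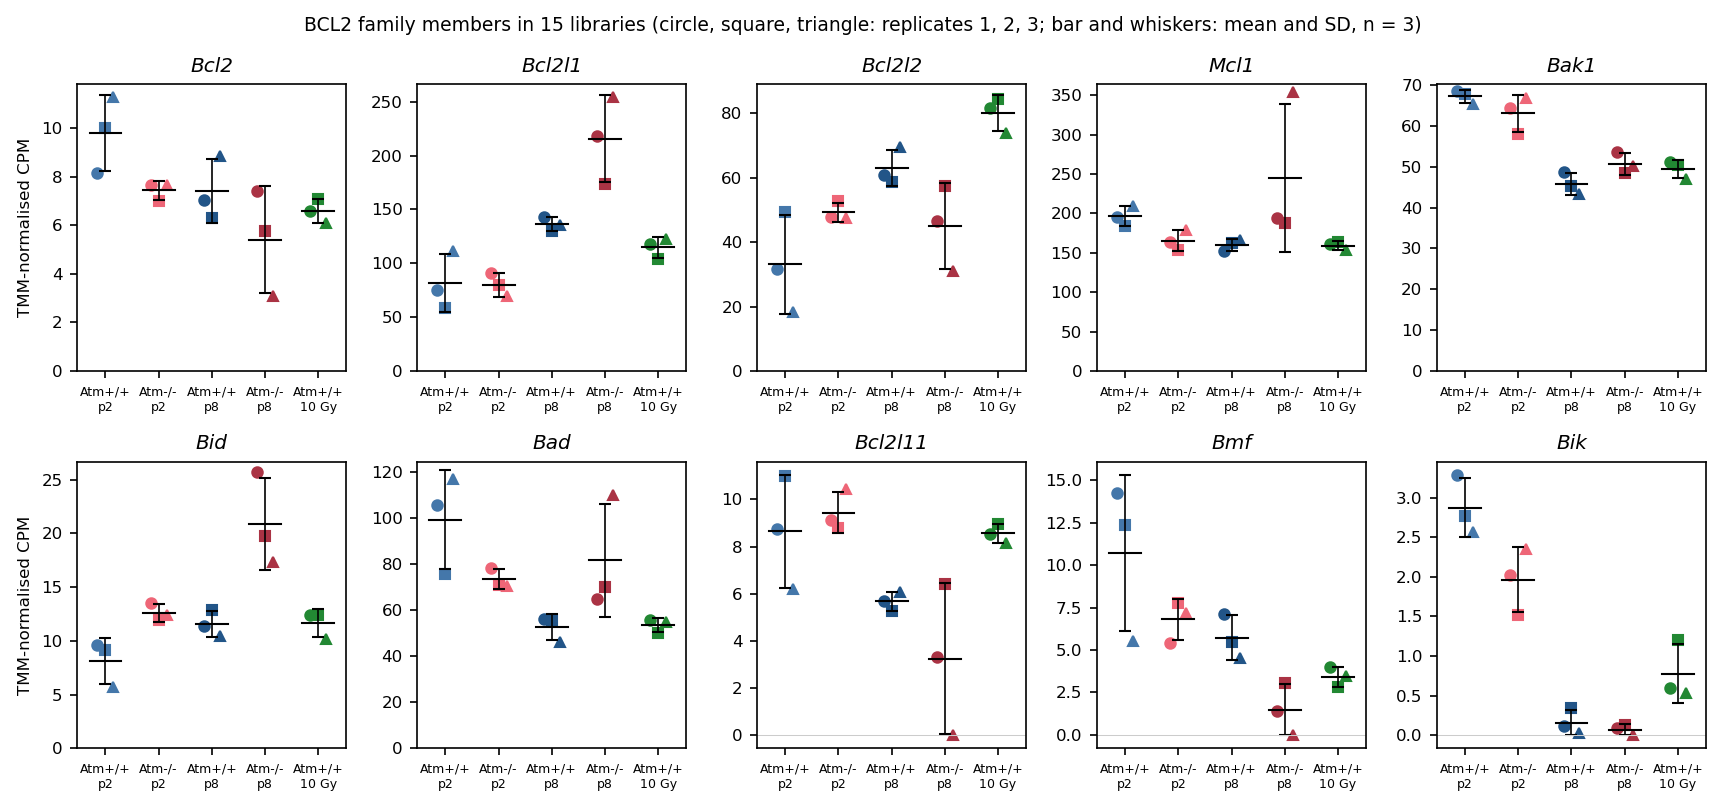
TMM-normalised CPM (vertical axes starting at or just under 0) of each gene in the 15 libraries, by group, with replicates 1, 2 and 3 as circle, square and triangle and bars for the mean and SD (n = 3). Bcl2l1 is highest in the 3 Atm-/- passage 8 libraries (174 to 255 CPM), and Bik is at most 0.339 CPM in all 6 passage 8 libraries.

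Bcl2l1 encodes BCL-XL, a guardian of the outer mitochondrial membrane. It stood at 75.2, 59.0 and 112 CPM in the Atm+/+ passage 2 libraries and at 143, 130 and 136 CPM at passage 8. In Atm-/- cells it stood at 91.3, 79.6 and 69.3 CPM at passage 2 and at 218, 174 and 255 CPM at passage 8. Every passage 8 library was above every passage 2 library, in both genotypes. The log2 change with passage was 0.73 (SE 0.21, edgeR adjusted p = 0.0225) in Atm+/+ cells, a 1.66-fold rise, and 1.43 (SE 0.21, adjusted p = 0.000501) in Atm-/- cells, a 2.69-fold rise. The difference between these changes, 0.69 (SE 0.29), did not pass the test (adjusted p = 0.137). Without the 2 libraries that stood apart the rises were 1.05 and 1.32 (edgeR adjusted p = 8.67e-05 and 1.61e-05). Their difference was 0.27 there (adjusted p = 0.359). On log2(TPM + 1) the rises were 0.99 and 1.05, with a difference of 0.06 (limma adjusted p = 0.830). The median gene's difference was -0.50 on that scale. In Atm+/+ cells the call was lost in the fits without passage 2 replicate 1, passage 8 replicate 1 or passage 8 replicate 3 (0.68, 0.71 and 0.74, adjusted p = 0.0746, 0.0658 and 0.0622) and with only these 2 groups fitted (adjusted p = 0.0860).

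Between genotypes at passage 8, each Atm-/- library lay above each Atm+/+ library for Bcl2l1, but the log2 difference of 0.66 (SE 0.21) missed the threshold (edgeR adjusted p = 0.0615) and passed by DESeq2 (0.67, adjusted p = 0.0346). It was 0.54 without the 2 libraries that stood apart and passed there too (adjusted p = 0.0130). Irradiated cells held 118, 104 and 123 CPM of Bcl2l1. This range overlapped that of passage 2 through the 112 CPM of replicate 3, and the log2 difference of 0.49 (SE 0.21) did not pass (adjusted p = 0.0953). It was 0.82 (adjusted p = 0.000613) without the 2 libraries, and on the log2(TPM + 1) scale 0.95 (limma adjusted p = 0.000723), where the median gene was shifted by 0.32. The 3 irradiated libraries all lay below the 3 Atm+/+ passage 8 libraries, by 0.25 (SE 0.21) on the log2 scale (adjusted p = 0.672).

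Bcl2l2 encodes BCL-W, a close relative of BCL-XL. Its levels were 31.7, 49.2 and 18.5 CPM in Atm+/+ passage 2 cells, 61.0, 58.6 and 69.5 CPM at passage 8 and 81.6, 84.6 and 73.8 CPM after irradiation. These 3 groups did not overlap, and the passage 2 libraries were the most scattered of them. Bcl2l2 rose by 0.92 (SE 0.28, edgeR adjusted p = 0.0306) on the log2 scale with passage, 1.90-fold, and by 1.27 (SE 0.28, adjusted p = 0.00645) after 10 Gy, 2.41-fold. The radiation call was kept in all 24 alternative fits (log2 change 1.03 to 1.80). The passage call was lost without passage 2 replicate 1 or 3, or without any 1 of the 3 passage 8 libraries (0.67 to 0.98, adjusted p = 0.0597 to 0.106), on the log2(TPM + 1) scale (adjusted p = 0.0604) and with only these 2 groups fitted (adjusted p = 0.104).

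In Atm-/- cells Bcl2l2 was at 47.7, 52.7 and 47.5 CPM at passage 2 and at 46.6, 57.6 and 31.1 CPM at passage 8. These groups overlapped, and the log2 change was -0.12 (SE 0.28, edgeR adjusted p = 0.807). The change with passage thus passed in Atm+/+ and missed in Atm-/- cells, but the difference between them, -1.05 (SE 0.40), did not pass either (adjusted p = 0.103), and without the 2 libraries it was -0.56 (adjusted p = 0.0944). It passed in the fit without Atm+/+ passage 2 replicate 2. Bcl2l2 shares 13.3% of its exon bases with Gm20521 on the same strand, and these reads were not separated here.

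Mcl1 encodes a short-lived protein whose transcript is abundant in most cells. Its CPM ranged from 153 to 210 over the 9 passage 2 and irradiated libraries and from 152 to 167 in Atm+/+ passage 8. The Atm-/- passage 8 libraries had 194, 188 and 354 CPM, the last value coming from the shallow replicate 3. With all libraries edgeR called Mcl1 in no comparison. Its log2 difference between genotypes at passage 8 was 0.61 (SE 0.20, edgeR adjusted p = 0.0664), and it passed by DESeq2 (0.63, adjusted p = 0.0395) and without the 2 libraries that stood apart (0.27, adjusted p = 0.0452). The difference of passage effects was 0.86 for Mcl1 (edgeR adjusted p = 0.0707), and it too passed by DESeq2 (0.90, adjusted p = 0.0371) and without the 2 libraries (0.45, adjusted p = 0.0364). Bcl2 itself was between 3.07 and 11.3 CPM in every library and was called by edgeR in no comparison with all libraries, with its highest group mean in Atm+/+ passage 2 (9.81 ± 1.56 CPM, SD, n = 3) and its lowest in Atm-/- passage 8 (5.41 ± 2.19). Its radiation difference against passage 2 passed in the fit that left out Atm-/- passage 8 replicate 3.

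Counted together as TPM, the 4 anti-apoptotic transcripts summed to 142 ± 17.4 in Atm+/+ and 159 ± 3.17 in Atm-/- passage 2 cells, 197 ± 17.3 and 220 ± 9.60 at passage 8 and 218 ± 2.55 after irradiation (SD, n = 3). On log2(TPM + 1) the median gene shifted by 0.19 with passage in Atm+/+ cells, -0.32 in Atm-/- cells and 0.32 after irradiation. Differences between the sums of these groups include that shift. Within the sum of the 4 genes the Mcl1 share was lower and the Bcl2l1 share higher at passage 8. Mcl1 made up 58.0% ± 2.46 of the sum in Atm+/+ passage 2 cells and 39.9% ± 1.80 at passage 8, while Bcl2l1 went from 31.6% ± 6.99 to 45.1% ± 2.07. In Atm-/- cells Mcl1 went from 51.8% ± 4.04 to 41.8% ± 6.42 and Bcl2l1 from 33.3% ± 3.9 to 50.2% ± 4.07. The passage 2 and passage 8 libraries did not overlap in any of these 4 shares. After irradiation Mcl1 stood at 41.2% ± 1.63, Bcl2l1 at 39.5% ± 3.08 and Bcl2l2 at 18.5% ± 1.39, the highest Bcl2l2 share of the 5 groups (7.55% to 14.0% elsewhere). Bcl2 never exceeded 1.53% of the sum. With 3 libraries against 3 the exact two-sided permutation test cannot give a p below 0.10, which each non-overlapping share reached (adjusted p = 0.16 over the 24 shares and comparisons computed).

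**Figure D3:**
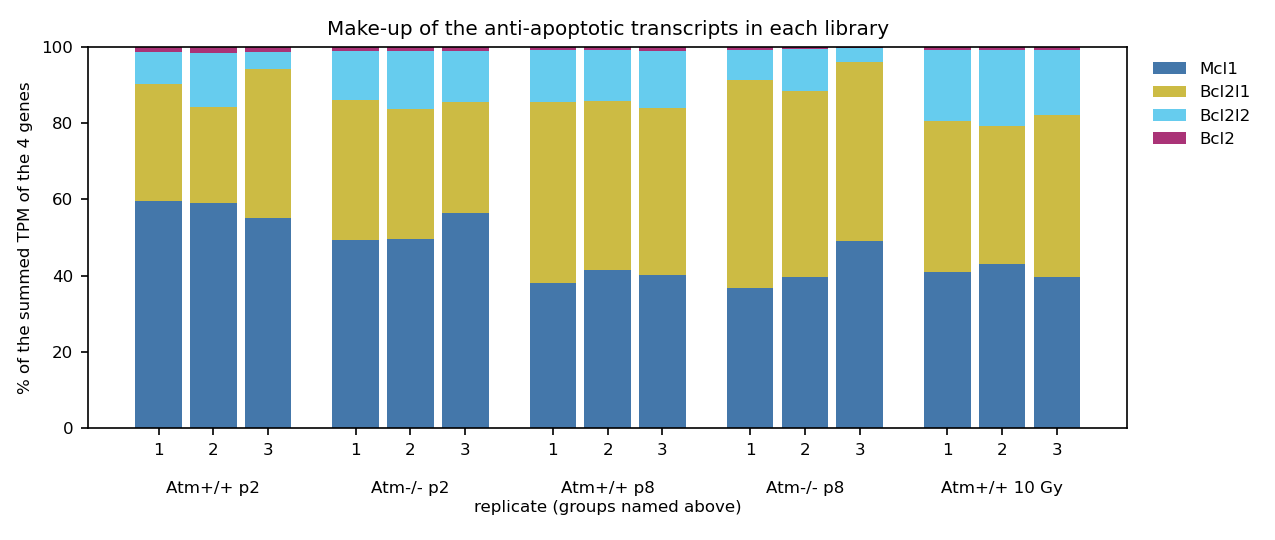
Share of the summed TPM of the 4 anti-apoptotic genes (vertical axis, %) taken by each gene in the 15 libraries, with 3 bars a group for replicates 1 to 3. The Mcl1 part is at least 49.3% in all 6 passage 2 libraries and between 36.7% and 49.0% in all others, and the Bcl2l2 part is widest in the irradiated libraries.

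Bak1, the effector member, fell in Atm+/+ cells by a small and even amount. It was at 68.5, 67.7 and 65.4 CPM in Atm+/+ passage 2 cells, 48.7, 45.4 and 43.4 CPM at passage 8 and 51.1, 50.4 and 46.9 CPM after irradiation. The passage 2 libraries all lay above both other groups. The log2 change was -0.55 (SE 0.11, edgeR adjusted p = 0.00212) with passage and -0.44 (SE 0.11, adjusted p = 0.00881) after irradiation. In Atm-/- cells the levels of 64.3, 58.1 and 66.8 CPM at passage 2 and 53.6, 48.4 and 50.2 CPM at passage 8 did not overlap either, with a log2 change of -0.31 (SE 0.11, adjusted p = 0.0682). That change passed with all libraries by DESeq2 (-0.32, adjusted p = 0.00310) and on the log2(TPM + 1) scale (-0.65, limma adjusted p = 0.0389), and without the 2 libraries by edgeR (-0.28, adjusted p = 0.0382). On the log2(TPM + 1) scale, where all genes shifted by a median of 0.32 after irradiation, the radiation difference of Bak1 was -0.01 (limma adjusted p = 0.962), or -0.33 relative to the median gene. Its passage change in Atm+/+ cells was -0.32 there (adjusted p = 0.229), or -0.51 relative to a median of 0.19. The radiation call was also lost without any 1 of the irradiated libraries (-0.40, -0.39 and -0.35, edgeR adjusted p = 0.0523 to 0.0811).

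Bad encodes a BH3-only protein that growth factor signalling keeps phosphorylated and inactive. It stood at 105, 75.4 and 117 CPM in Atm+/+ passage 2 libraries, 56.3, 55.7 and 46.3 CPM at passage 8 and 55.5, 49.8 and 54.7 CPM after irradiation. All passage 2 values were above all values of the other 2 groups. Bad fell by 0.91 on the log2 scale with passage (SE 0.20, edgeR adjusted p = 0.00558), a 1.88-fold drop, and by 0.89 after irradiation (SE 0.20, adjusted p = 0.00650), a 1.86-fold drop. Both calls held in all 24 alternative fits. Atm-/- cells held 78.3, 71.0 and 70.5 CPM at passage 2 and 64.7, 70.1 and 110 CPM at passage 8, with overlapping groups and a log2 change of 0.15 (SE 0.20, adjusted p = 0.663). Between genotypes the passage effects differed by 1.06 (SE 0.28) with an edgeR adjusted p of 0.05002, just above the threshold. It was 0.66 (adjusted p = 0.0341) without the 2 libraries that stood apart, 1.11 (adjusted p = 0.0115) by DESeq2 and 0.42 (adjusted p = 0.0904) on the log2(TPM + 1) scale.

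Bid encodes the BH3-only protein that caspase-8 cleaves, linking death receptors to mitochondria. Its levels were 9.59, 9.18 and 5.71 CPM in Atm+/+ and 13.5, 11.9 and 12.4 CPM in Atm-/- passage 2 cells. At passage 8 they were 11.4, 12.8 and 10.4 CPM in Atm+/+ and 25.7, 19.7 and 17.4 CPM in Atm-/- cells. The Atm-/- libraries were higher at both passages, without overlap. At passage 2 the genotypes differed by a log2 value of 0.62 with an SE of 0.22 (edgeR adjusted p = 0.214; DESeq2 0.60, adjusted p = 0.0491). At passage 8 they differed by 0.86 with an SE of 0.22 (edgeR adjusted p = 0.0264), a 1.81-fold higher level. Passage raised Bid in Atm-/- cells by 0.73 (SE 0.22, adjusted p = 0.0380), 1.66-fold, while the change in Atm+/+ cells was 0.50 (SE 0.22, adjusted p = 0.109), and the difference between the 2 changes was 0.23 (SE 0.30, adjusted p = 0.615).

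The Bid calls depended on the libraries fitted. The genotype call at passage 8 was lost without any 1 of the Atm+/+ passage 8 libraries or without Atm-/- passage 8 replicate 1 (0.68 to 0.93, edgeR adjusted p = 0.0643 to 0.129), on the log2(TPM + 1) scale (0.47, adjusted p = 0.257) and with only these 2 groups fitted (adjusted p = 0.123). The passage call in Atm-/- cells was lost without irradiated replicate 1 or 2, any Atm-/- passage 2 library, any Atm+/+ passage 8 library or Atm-/- passage 8 replicate 1 (0.58 to 0.80, adjusted p = 0.0512 to 0.128), on the log2(TPM + 1) scale (0.33, adjusted p = 0.418) and with only these 2 groups fitted (adjusted p = 0.106). Without the 2 libraries that stood apart both calls were kept, at 0.99 (adjusted p = 0.000548) and 0.87 (adjusted p = 0.000511). Between the same passage 8 groups, 8 of 10 fibroblast markers were lower and 1 higher in Atm-/- cells, and 3 of 10 macrophage markers were lower. There 4 of 8 endothelial and 3 of 4 tested mesothelial markers were higher. Of 7 smooth muscle and pericyte markers, 4 were lower and 1 higher, in a comparison that called 9.32% of all genes. The part of these cell types in the Bid difference was not tested. Irradiated cells had 12.4, 12.4 and 10.2 CPM of Bid, above each passage 2 library but with a log2 difference of 0.51 (SE 0.22) that did not pass by edgeR (adjusted p = 0.0904) and passed by DESeq2 (0.52, adjusted p = 0.0266).

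Bik, a BH3-only gene whose product sits at the endoplasmic reticulum, had the largest log2 changes of the 10 genes. It was counted 106, 101 and 53 times in the Atm+/+ and 73, 60 and 86 times in the Atm-/- passage 2 libraries. At passage 8 it was counted 4, 10 and 1 times in Atm+/+ and 3, 4 and 0 times in Atm-/- cells. Irradiated libraries had 23, 51 and 19 counts, between the other Atm+/+ groups without overlap. In CPM these were 2.87 ± 0.374 (Atm+/+ passage 2), 1.96 ± 0.414 (Atm-/- passage 2), 0.160 ± 0.161 and 0.0719 ± 0.0656 (the passage 8 groups) and 0.776 ± 0.372 after irradiation (SD, n = 3), so passage 8 levels lay near the 0.0824 to 0.263 CPM that 3 counts give in those libraries. With passage Bik fell by 4.18 (SE 0.70, edgeR adjusted p = 0.000857) on the log2 scale in Atm+/+ cells and fell by 4.45 (SE 0.76, adjusted p = 0.00148) in Atm-/- cells, about 18.1-fold and 21.8-fold, and both calls held in the 23 alternative fits that tested it. At these low levels log2(TPM + 1) compresses the falls to -1.78 and -1.69.

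After 10 Gy the log2 level of Bik differed from passage 2 by -1.88 (SE 0.61, edgeR adjusted p = 0.0355) and from passage 8 by 2.30 (SE 0.68, adjusted p = 0.0636; 2.39 and adjusted p = 0.00118 by DESeq2). The first of these calls was lost without any 1 of the irradiated libraries, Atm+/+ passage 2 replicate 1, any Atm-/- passage 2 library or Atm+/+ passage 8 replicate 1 (-2.28 to -1.61, adjusted p = 0.0527 to 0.145). The values were -1.90 (adjusted p = 0.00412) and 2.36 (adjusted p = 0.0069) without the 2 libraries that stood apart. Markers of some other cell types moved in the direction of Bik, and others did not. With passage, all 10 macrophage and all 8 endothelial markers were lower in both genotypes, and 5 of 6 tested epithelial markers in Atm+/+ and 2 of 6 in Atm-/- cells. In both genotypes 3 of 4 tested mesothelial markers were higher. Of 7 smooth muscle and pericyte markers, 4 were higher and 2 lower in Atm+/+ cells and 2 lower in Atm-/- cells. Of all genes, 23.3% and 13.0% were called with passage in Atm+/+ and Atm-/- cells. After irradiation 1 of 10 macrophage, 6 of 8 endothelial and 5 of 6 epithelial markers were lower than at passage 2, and 9 of 10 macrophage and all 8 endothelial markers were higher than at passage 8. Against passage 2, 5 of the 7 smooth muscle and pericyte markers were higher and 1 lower. Against passage 8, 2 of 4 tested mesothelial markers were lower. Of all genes, 27.5% and 6.89% were called against passage 2 and passage 8. The part of these cell types in the Bik differences was not tested.

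**Figure D4:**
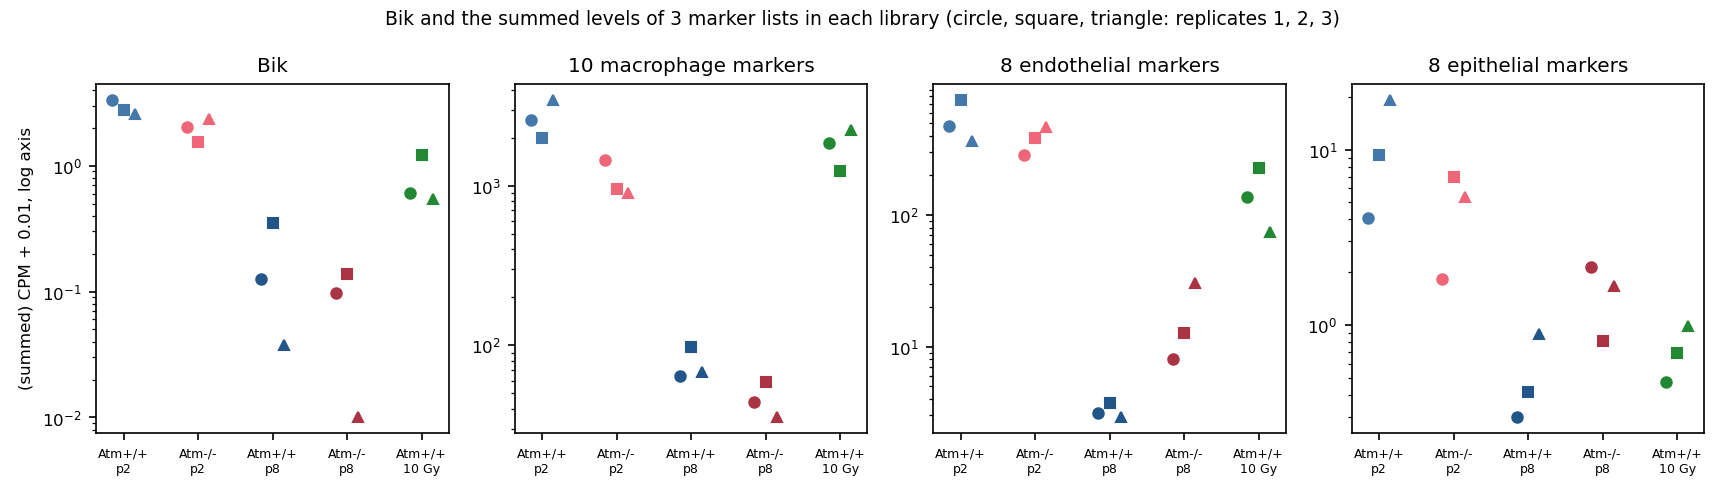
Bik and the summed levels of 10 macrophage, 8 endothelial and 8 epithelial markers in the 15 libraries (vertical axes, CPM + 0.01, log scale), by group and replicate. Bik, macrophage and endothelial sums are lowest in the 6 passage 8 libraries, and the irradiated libraries lie between for Bik and the endothelial sum but near passage 2 for the macrophage sum.

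Bmf, tethered to the cytoskeleton in healthy cells, and Bcl2l11, which encodes BIM, gave the least certain values. Bmf was at 14.3, 12.4 and 5.51 CPM in Atm+/+ passage 2 cells, 7.15, 5.46 and 4.53 CPM at passage 8 and 4.0, 2.79 and 3.44 CPM after irradiation. The Atm-/- values were 5.43, 7.75 and 7.20 CPM at passage 2 and 1.40, 3.02 and 0 CPM at passage 8. Irradiated libraries were all below both other Atm+/+ groups, and Atm-/- passage 8 libraries below all Atm+/+ passage 8 libraries. No Bmf difference passed by edgeR with all libraries: the log2 change was -0.91 (SE 0.66, edgeR adjusted p = 0.322) with passage in Atm+/+ cells, -2.12 (SE 0.69, adjusted p = 0.0622) in Atm-/- cells, and -1.66 (SE 0.67, adjusted p = 0.0805) after irradiation. The genotype difference at passage 8 was -1.87 (SE 0.69, adjusted p = 0.0980). With all libraries DESeq2 called Bmf lower with passage in Atm-/- cells (-2.18, adjusted p = 0.00386), in Atm-/- passage 8 cells (-1.92, adjusted p = 0.0163) and after irradiation (-1.63, adjusted p = 0.0231). The fall in Atm-/- cells also passed on the log2(TPM + 1) scale (-1.28, limma adjusted p = 0.0187), and the radiation difference with only the groups compared (edgeR adjusted p = 0.0337). Without the 2 libraries that stood apart all 4 passed, at -1.20 (adjusted p = 0.00312), -1.61 (adjusted p = 0.00142), -1.92 (adjusted p = 0.000132) and -1.36 (adjusted p = 0.00654).

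Bcl2l11 was at 8.75, 11.0 and 6.19 CPM in Atm+/+ and 9.11, 8.77 and 10.4 CPM in Atm-/- passage 2 cells. At passage 8 it was at 5.71, 5.26 and 6.07 CPM in Atm+/+ and 3.32, 6.42 and 0 CPM in Atm-/- cells, and irradiated cells had 8.55, 8.97 and 8.16 CPM. Passage 8 libraries were all below the passage 2 libraries of their genotype, and irradiated libraries were all above those of passage 8. None of these differences passed by edgeR with all libraries (log2 change with passage -0.61, SE 0.69, edgeR adjusted p = 0.539 in Atm+/+ and -1.48, SE 0.70, adjusted p = 0.189 in Atm-/- cells). On the log2(TPM + 1) scale the fall of Bcl2l11 in Atm-/- cells passed (-1.21, limma adjusted p = 0.0289), and with only the groups compared so did the irradiated against passage 8 difference (0.62, edgeR adjusted p = 0.00194). Without the 2 libraries the passage changes were -0.77 (adjusted p = 0.0106) and -0.94 (adjusted p = 0.00630), and the difference between irradiated and passage 8 cells was 0.61 (adjusted p = 0.0313). The 0 for Bmf and for Bcl2l11 came from Atm-/- passage 8 replicate 3, where a count of 0 allows up to 0.263 CPM. Replicates 1 and 2 of that group had 48 and 94 Bmf counts and 114 and 200 Bcl2l11 counts.

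The wider apoptosis machinery was followed in 6 lists with 61 genes, of which 58 passed the filter (Hrk, Bcl2l10 and Bcl2l15 did not). In the order passage in Atm+/+, passage in Atm-/- and 10 Gy against passage 2, they had 11 higher and 11 lower, 6 and 9, and 10 and 11 genes called by edgeR. These are 37.9%, 25.9% and 36.2% of the 58 genes, against 23.3%, 13.0% and 27.5% of all genes. Their medians in those comparisons were 0.00, -0.04 and -0.01, near those of all genes. Between genotypes 0 were called at passage 2 by edgeR, with 9 at an unadjusted p under 0.05 and 4 called by DESeq2. Of all genes tested, 2929 had an unadjusted p under 0.05 there and DESeq2 called 919. At passage 8, 8 of the 58 were higher and none lower between genotypes by edgeR. Irradiated against passage 8 cells had 7 higher and 1 lower. Each of these counts of 8 is 13.8% of the 58, against 9.32% and 6.89% of all genes.

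The counts over these 58 genes changed with the libraries and groups fitted. Without the 2 libraries that stood apart they were 38 and 26 with passage in Atm+/+ and Atm-/- cells, 31 and 23 for irradiated against passage 2 and passage 8 cells, and 4 and 25 between genotypes at passages 2 and 8. The genotype count at passage 8 was 4, 4 and 2 without Atm+/+ passage 8 replicates 1, 2 and 3, 19 without Atm+/+ passage 2 replicate 3, 16 without Atm-/- passage 8 replicate 2, 18 by DESeq2 and 0 with only these groups fitted. At passage 2 the count was 7 without Atm+/+ passage 2 replicate 2. It was 2 there when Atm-/- passage 8 replicate 3 was left out, and 0 in the other 13 such fits. The Atm+/+ passage count was 14 and 13 without Atm+/+ passage 8 replicates 2 and 3 and 34 without Atm-/- passage 8 replicate 3. Against passage 2 the radiation count was 8, 8 and 10 without irradiated replicates 1, 2 and 3, 11 without Atm+/+ passage 2 replicate 1 or 3 and 13 with only these groups fitted. Against passage 8 it was 16 without Atm-/- passage 8 replicate 3 and 29 with only these groups fitted. The Atm-/- passage count stayed between 12 and 21 when 1 library was left out and was 7 with only these groups fitted. Counts over all genes moved as well. Fits that left out libraries called up to 7500 and 5026 of all genes with passage in Atm+/+ and Atm-/- cells. They called up to 8561 and 4710 for irradiated against passage 2 and passage 8 cells. Between genotypes the fit without the 2 libraries called 989 and 4629 at passages 2 and 8 (176 and 1693 with all libraries).

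**Figure D5:**
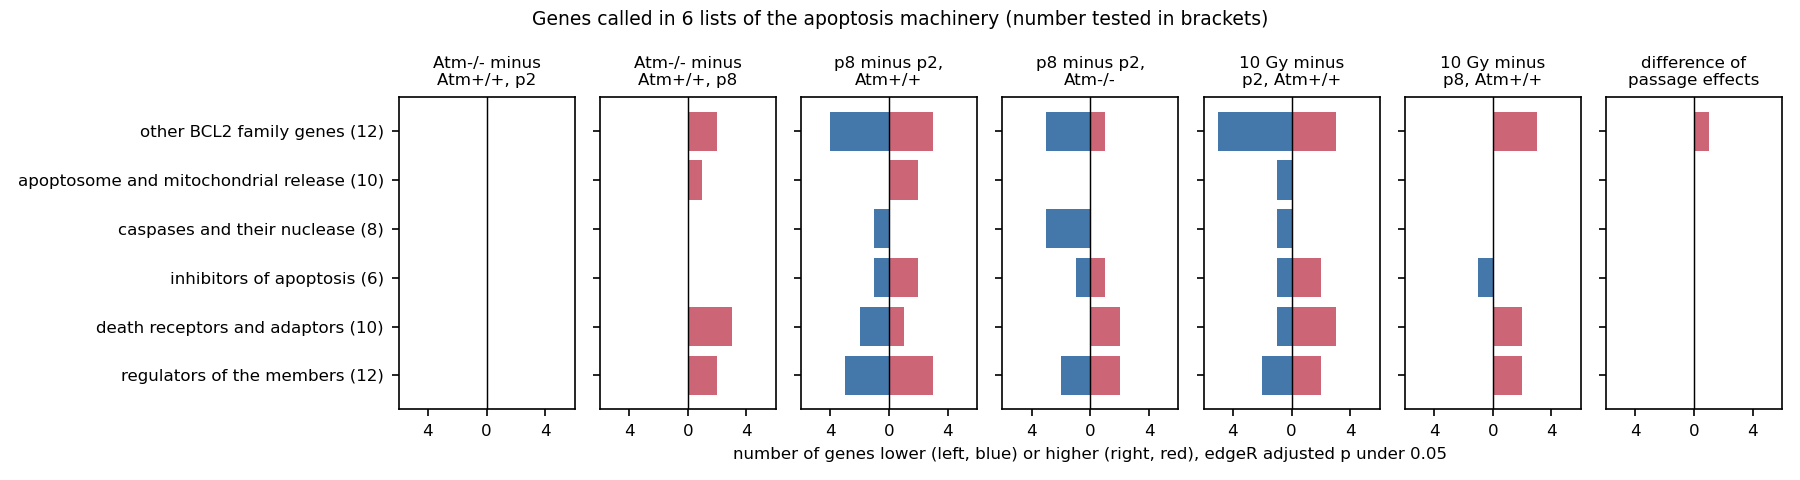
Number of genes called lower (blue, left of 0) or higher (red, right of 0) in 6 lists of the apoptosis machinery (rows, number tested in brackets) in the 7 comparisons (panels), edgeR adjusted p under 0.05. No gene is called at passage 2 between genotypes, and only red bars appear between genotypes at passage 8.

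Among the other BCL2 family genes, 3 of 12 tested were higher and 4 lower with passage in Atm+/+ cells, 1 higher and 3 lower in Atm-/- cells, and 3 higher and 5 lower after 10 Gy, where 23.3%, 13.0% and 27.5% of all genes were called. Pmaip1, which encodes the MCL1-binding BH3-only protein NOXA, was at 2.81 ± 1.32 CPM in Atm+/+ passage 2 cells and at 17.1 ± 0.304 CPM after irradiation (SD, n = 3), a log2 rise of 2.58 (SE 0.34, edgeR adjusted p = 0.000252). At passage 8 it was higher in Atm-/- (21.2 ± 7.62) than in Atm+/+ cells (8.26 ± 0.706), by 1.36 (SE 0.32, adjusted p = 0.0200). Bax, the other main effector, was also higher there, 304 ± 58.5 against 153 ± 15.8 CPM (log2 difference 0.99, SE 0.19, adjusted p = 0.00744). Bnip3, a hypoxia-induced mitophagy receptor, rose by 1.85 after 10 Gy (SE 0.45, adjusted p = 0.00950) and Bcl2l12 fell by 0.70 (SE 0.18, adjusted p = 0.0136). Leaving out each of the 15 libraries in turn, the genotype call of Pmaip1 was lost in 4 fits and the call of Bcl2l12 in 4. Both of these calls were also lost with only the groups compared and on both TPM scales. The genotype call of Bax was lost with only the groups compared.

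The 3 Bcl2a1 genes, blood-cell survival factors with near-identical copies whose reads may be split uncertainly, were lower at passage 8 in Atm+/+ cells, with log2 changes of -6.46 (Bcl2a1d), -6.80 (Bcl2a1a) and -6.37 (Bcl2a1b). For Bcl2a1d and Bcl2a1a the changes in Atm-/- cells were -6.26 and -6.31, and Bcl2a1b, at 4.38 ± 1.87 CPM (SD, n = 3) at passage 2, had 0 counts in all 3 passage 8 libraries, at least 112.3-fold lower against 3 counts over the group. After irradiation they were higher than at passage 8 by 4.75, 5.03 and 4.14. The edgeR adjusted p of these calls lay between 2.11e-05 (Bcl2a1d with passage in Atm+/+ cells) and 0.00506 (Bcl2a1b, irradiated against passage 8). Irradiated levels of 4.79 ± 1.57, 3.47 ± 0.92 and 3.51 ± 1.23 CPM were below those of Atm+/+ passage 2. The latter were 15.6 ± 6.04, 11.8 ± 3.16 and 16.6 ± 10.4 CPM, without overlap (SD, n = 3). All 10 macrophage markers fell with passage in both genotypes, and their part in these changes was not tested.

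Downstream of the membrane, Casp2, which encodes an initiator caspase, fell with passage in Atm-/- cells by 1.42 on the log2 scale. Among apoptosome and release genes, the channel genes Vdac1 and Vdac2 rose with passage in Atm+/+ cells, by 0.80 and 0.57, Mtch2, a receptor for BID, fell by 0.35 after irradiation, and Cycs, cytochrome c, was higher by 0.77 in Atm-/- passage 8 cells. Leaving out 1 library ended the call of Mtch2 in 12 of 15 fits, that of Casp2 in 12, those of Vdac1 and Vdac2 in 3 and 5 and that of Cycs in 2. On both TPM scales the calls of Cycs, Vdac1, Vdac2 and Mtch2 were lost. With only the groups compared those of Cycs, Vdac1, Mtch2 and Casp2 were lost.

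Of 6 inhibitors of apoptosis, Birc5, which encodes survivin and is made in dividing cells, fell from 29.9 ± 1.88 CPM in Atm+/+ passage 2 cells to 13.9 ± 1.21 at passage 8 (log2 change -1.10, edgeR adjusted p = 0.00253) and to 4.03 ± 0.60 after irradiation (-2.89, adjusted p = 7.28e-06; SD, n = 3). Irradiated cells were also below passage 8 cells, by 1.79 (adjusted p = 0.000205). Cflar, the decoy of caspase-8, rose with passage by 0.56 in Atm+/+ and 0.84 in Atm-/- cells and by 0.49 after irradiation. Birc6 rose by 0.91 with passage in Atm+/+ cells and by 0.71 after irradiation, and Birc2 fell by 1.00 with passage in Atm-/- cells. Among the 10 death receptor genes, Tnfrsf12a rose by 1.47 and 1.28 with passage in Atm+/+ and Atm-/- cells. Tnfrsf10b, the TRAIL receptor, rose after irradiation by 1.26, with passage in Atm-/- cells by 1.03, and was higher by 0.86 in Atm-/- than in Atm+/+ passage 8 cells, beside Mlkl (0.82) and Fadd (0.96). Fas was higher after irradiation than at passage 2 (0.58) and at passage 8 (0.81). Tradd fell with passage in Atm+/+ cells (-0.83) and after irradiation (-0.72), and Tnfrsf21 fell with passage (-2.98) and was higher after irradiation than at passage 8 (2.46). Of these, leaving out 1 library ended the genotype calls of Tnfrsf10b in 12 of 15 fits and of Fadd in 3, and the call of Tnfrsf21 after irradiation in 10. It ended the radiation calls of Birc6 in 4 fits, of Cflar, Fas and Tradd in 3 each, of Fas against passage 8 in 2, the Atm+/+ passage call of Cflar in 3 and the call of Birc2 in 2. With only the groups compared and on both TPM scales, the genotype calls of Mlkl, Fadd and Tnfrsf10b were lost. So were the Atm-/- passage calls of Tnfrsf12a and Cflar and the radiation call of Tradd. The Atm+/+ passage calls of Cflar and Tradd were lost on both TPM scales. The radiation call of Birc6 and the Atm-/- passage call of Tnfrsf10b were lost with only the groups compared.

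Regulators of the 10 genes changed in both directions. Foxo1, a forkhead factor known to switch on Bcl2l11, fell from 23.3 ± 4.55 to 5.82 ± 0.604 CPM with passage in Atm+/+ cells (SD, n = 3, log2 change -2.0, edgeR adjusted p = 1.78e-05). It fell by 1.08 in Atm-/- cells and by 0.95 after irradiation and was 1.05 higher after irradiation than at passage 8. Pim1, a kinase that inactivates BAD, fell with passage by 0.95 in Atm+/+ and 0.97 in Atm-/- cells and was 0.84 higher after irradiation than at passage 8. Ddit3, the stress factor CHOP, rose by 1.76 with passage in Atm-/- cells and was 1.42 higher there than in Atm+/+ passage 8 cells. Dynll2, the dynein light chain that holds BMF, was higher by 0.87 in the latter comparison. Usp9x, a deubiquitinase of MCL1, rose by 0.79 after irradiation, and the ubiquitin ligase gene Marchf5 rose by 0.47 with passage in Atm+/+ cells and by 0.50 after irradiation. The calls of Ddit3 (1 fit) and Dynll2 (3 fits) between genotypes and of Marchf5 with passage (2 fits) were lost when 1 library was left out, of 15 such fits each. With only the groups compared, the calls of Ddit3 and Dynll2 and the Atm-/- passage call of Foxo1 were lost. On both TPM scales the passage call of Marchf5 and the call of Foxo1 after irradiation against passage 2 were lost.

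Genes with the nearest pattern over the 15 libraries were sought for the 4 members with the smallest p, by the root mean square difference of centred log2 CPM over 10054 candidate genes. For Bcl2l1 they were Pak1 (0.16) and Chpf (0.18), against a median of 0.69 over all candidates. For Bik they were Wnt4 and Cdh13 (0.54 each, median 1.95). For Bak1 they were Plcd3 and Tmem14c (0.097 each, median 0.44), and for Bad Erp29 and Prcc (0.087 each, median 0.57). These are descriptions of likeness over libraries that share depth and normalisation.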

How the data were processed

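Total RNA of 15 cultures was sequenced from TruSeq libraries, per the labels' protocols. The authors deposited raw gene counts (featureCounts on mm10, with SAMtools 1.3.1 also named, per the submitters' processing notes) and TPM, which are counts scaled by gene length and to a fixed sum. The aligner, annotation release and strand setting: not given in the sources used here. Gene names, positions and exon overlaps came from GENCODE M21, promoters from RefSeq.

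The counts were tested with edgeR 4.0.16 in R 4.3.3: filterByExpr by group, TMM, and 1 robust quasi-likelihood fit of all 15 libraries with a mean per group. Benjamini-Hochberg adjustment ran over the 18167 genes tested at a threshold of 0.05. Standard errors were taken as the size of the log2 change over the root of its F statistic. CPM are TMM-normalised. Replicates are cell strains, 3 per genotype. Alternatives were DESeq2 1.42.0, edgeR with the DESeq2 size factors, filters removed or made stricter, fits of only the groups compared, limma 3.58.1 on log2(TPM + 1) and log2(TPM + 0.1), a replicate block, and each library left out. A fit without Atm+/+ passage 2 replicate 3 and Atm-/- passage 8 replicate 3 was added after the data were seen. Scripts were tested on simulated data.

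The 10 genes were fixed by name. From 6 lists of the apoptosis machinery up to 3 called genes per comparison with the lowest p were chosen (some are not reported here), and 7 lists of cell type markers are summed. The members, lists and tests were chosen with earlier results of these data known. Limits from counts of 0 (3 counts) cover counting error only.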

Additional observations from a re-analysis of the deposited data

Results flagged for a closer look

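The passage effect on Bax, the other main effector gene, differed between genotypes by a test of the difference itself: the change in Atm-/- cells exceeded that in Atm+/+ cells by a log2 value of 1.23 (SE 0.27; edgeR adjusted p = 0.0301), with means of 205 ± 29.7 and 304 ± 58.5 CPM at passages 2 and 8 in Atm-/- cells against 241 ± 61.4 and 153 ± 15.8 CPM in Atm+/+ cells (SD, n = 3). This call was lost in 11 of the 15 fits that each left out a library, with only the 4 groups compared and on both TPM scales.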

How the results depend on the processing

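For the 10 genes, 13 differences were called with all libraries, and their 309 values under the alternatives all kept their direction, with 258 still called. Of 1363 alternative values for the 57 differences not called, 79 were called, none in the opposite direction. The counts of called genes are given in the order genotype at passage 2 and 8, passage in Atm+/+ and Atm-/-, irradiated against passage 2 and 8, and difference of passage effects, where all libraries gave 0, 1, 5, 3, 4, 0 and 0. Leaving out 1 library gave 0 to 1, 0 to 5, 3 to 7, 2 to 5, 2 to 8, 0 to 1 and 0 to 4. DESeq2 gave 1, 5, 5, 5, 6, 1 and 2, and the fit without the 2 libraries that stood apart 0, 4, 7, 6, 6, 2 and 2. Fits of only the groups compared gave 0, 0, 3, 2, 5, 4 and 0, and limma on log2(TPM + 1) gave 0, 0, 3, 5, 5, 1 and 0. On log2(TPM + 0.1) the counts were 0, 0, 3, 4, 4, 1 and 0. Without the filter, 0 were called between genotypes at passage 8 and 2 after irradiation against passage 2, and the stricter filter called 1 for the difference of passage effects. On log2(TPM + 1) the split of calls was 1 higher and 4 lower for passage in Atm-/- cells (2 and 1 with edgeR) and 3 higher and 2 lower after irradiation (1 and 3), and the median of all genes was shifted by -0.50 to 0.32 over the comparisons. Over all genes the alternatives called 40 to 1787 (176 with all libraries), 18 to 4629 (1693), 2186 to 7500 (4227), 868 to 5026 (2362), 2677 to 8561 (4998), 722 to 6214 (1252) and 79 to 4600 (804). The cause was not tested. Of the 59 pairs of gene and comparison chosen from the pathway lists, 22 lost their call in at least 1 fit without a library and 34 in at least 1 alternative of any kind. Deviations of same-numbered replicates from their group means were at most weakly correlated. Their r ran from -0.20 to 0.19 over 12 pairs within a genotype and from -0.16 to 0.22 over 6 pairs across genotypes. The labels do not tie a number to a strain across passages. The replicate block gave 0, 1, 5, 3, 4, 0 and 0 calls and changed none of the 13. It gave same-numbered Atm+/+ and Atm-/- libraries, which come from different strains, a shared effect. A pairing of strains within each genotype was therefore not tested. The main fit took all 15 libraries as independent, though both passages of a genotype were sampled from 3 strains. Every library correlated best with its own number in 1 of 6 pairs of groups, Atm+/+ passage 8 and irradiated. Depth limits Bik at passage 8 (0 to 10 counts a library). The counts of 0 for Bmf and Bcl2l11 came from Atm-/- passage 8 replicate 3, which stood apart beyond its depth. In that library 3 counts give 0.263 CPM, while replicates 1 and 2 had 1.40 and 3.02 CPM of Bmf and 3.32 and 6.42 CPM of Bcl2l11. The cause of these 0 counts was not tested.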
